A study of Homo sapiens with 16 samples.

Results

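The EGFR family comprises 4 receptor genes (EGFR, ERBB2, ERBB3 and ERBB4), and together with 5 of their ligand genes (AREG, EREG, HBEGF, TGFA and BTC) and the receptor inhibitor gene ERRFI1 they make up the 10 genes described here, of 59428 genes in the count table. They were chosen by name, as members of the receptor family, its ligands and its inhibitor, and all 10 were found in the table by their gene symbol. The transcripts were measured in OVCAR3 and UWB1.289, established lines of human ovarian carcinoma, after exposure for 96 h to olaparib or to DMSO, in which it was dissolved. Olaparib inhibits PARP enzymes, which act in the repair of DNA strand breaks. The 4 groups, with 4 libraries each, were OVCAR3 with DMSO, OVCAR3 with 7.5 µM olaparib, UWB1.289 with DMSO and UWB1.289 with 3.5 µM olaparib. UWB1.289 carries a deleterious BRCA1 mutation and OVCAR3 has intact BRCA1. The doses differed, and so did the media. UWB1.289 was grown in a mixture of RPMI and a mammary epithelial medium, a kind usually sold with EGF as a supplement. OVCAR3 was grown in RPMI with insulin and a higher share of serum. Effects of the line, its BRCA1 gene, the dose and the medium, serum included, therefore cannot be told apart.

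The 4 receptors are membrane proteins that pair with each other when a ligand binds, and their kinase domains then signal through RAS and ERK and through PI3K and AKT. ERBB2 has no known ligand of its own, and ERBB3 has little kinase activity and signals through its partner. The ligands are made as membrane-bound precursors that proteases such as ADAM17 and ADAM10 cut free, and several of the ligand genes are themselves transcribed in response to receptor signalling. ERRFI1, also known as MIG6, binds the kinase domain of the receptors and inhibits it. In ovarian carcinoma the receptors are found on the tumour cells, and the ligands can act on the cells that release them.

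Libraries were made with QuantSeq, which reads the 3' ends of polyadenylated transcripts, so the values do not tell isoforms apart that share an end. Total counts ranged from 5599571 to 7730228 per library, and the 10 genes together held between 0.0303% and 0.0609% of them. Levels are given as CPM, a gene's counts scaled to a common library total with TMM library sizes. A gene passed the test at an adjusted p below 0.1 in edgeR's quasi-likelihood test, with adjustment over all genes tested, and it was called differentially expressed where it also differed more than 2-fold with an average normalized count above 10. Of 10 genes that mark ovarian serous carcinoma, 10 were above 1 CPM in OVCAR3 and 9 in UWB1.289, where WT1 had no count with DMSO. The summed level of that list went from between 4232 and 4476 CPM with DMSO to between 2736 and 2954 CPM with olaparib in OVCAR3, and from between 7493 and 8091 to between 5904 and 7216 CPM in UWB1.289. Keratins weighed most in the sum. In OVCAR3 the mean of KRT18 went from 1791 to 881 CPM and that of KRT8 from 832 to 400 CPM. There WT1 went from 121 to 75.2 CPM, MECOM from 43.3 to 27.8 CPM and PAX8 from 444 to 426 CPM. MUC16 went from 209 to 138 CPM, with libraries that overlapped. Of that list only KRT7 had a higher mean with olaparib in OVCAR3, from 345 to 393 CPM. In UWB1.289 the keratins had lower means with olaparib and the other genes of the list higher ones. KRT18 went from 4192 to 3172 CPM there and MUC16 from 36.4 to 58.4 CPM. A list of leukocyte markers summed to between 7.64 and 11.6 CPM with DMSO and between 15.4 and 19.7 CPM with olaparib in UWB1.289, with CD3E at 0 in that line, and a list of fibroblast markers went from between 21.8 and 30.3 to between 30.4 and 38.9 CPM in OVCAR3, with COL3A1 and LUM at 0. In those groups 3 of 5 leukocyte and 1 of 5 fibroblast genes were above 1 CPM with olaparib, and 4 endothelial genes summed to at most 3.14 CPM in OVCAR3 and 11.5 CPM in UWB1.289. The part of these shifts in the results was not tested. In such bulk RNA, fewer cells that make a transcript and less of it per cell cannot be told apart. The labels do not say whether replicates were separate cultures, so p-values may measure technical spread only.

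The regions before the start sites of the 4 ligand genes that the results turn on are printed first, since AREG, HBEGF and TGFA rose with olaparib in both lines and EREG is the neighbour of AREG. Each is the 250 bases before a RefSeq start of the gene on its own strand, read 5' to 3' on GRCh38.p14. They lie at chr4:74444886-74445135 (plus strand) for AREG, chr4:74364895-74365144 (plus strand) for EREG, chr5:140346604-140346853 (minus strand) for HBEGF and chr2:70553827-70554076 (minus strand) for TGFA, the farther upstream of its 2 RefSeq starts. Capitals mark matches, on either strand, to a CRE (TGACGTCA), a TATA box (TATAAA), a GC box (GGGCGG) or an AP-1 site (TGANTCA).
AREG: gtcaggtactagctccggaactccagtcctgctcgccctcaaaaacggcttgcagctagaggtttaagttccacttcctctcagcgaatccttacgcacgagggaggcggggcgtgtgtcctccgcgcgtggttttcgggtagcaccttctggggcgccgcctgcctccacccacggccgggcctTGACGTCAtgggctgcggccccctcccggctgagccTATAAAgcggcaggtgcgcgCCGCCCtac
EREG: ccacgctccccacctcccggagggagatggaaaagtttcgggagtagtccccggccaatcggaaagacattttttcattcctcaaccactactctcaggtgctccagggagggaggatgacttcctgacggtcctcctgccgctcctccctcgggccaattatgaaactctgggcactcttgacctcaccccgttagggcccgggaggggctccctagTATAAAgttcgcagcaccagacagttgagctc
HBEGF: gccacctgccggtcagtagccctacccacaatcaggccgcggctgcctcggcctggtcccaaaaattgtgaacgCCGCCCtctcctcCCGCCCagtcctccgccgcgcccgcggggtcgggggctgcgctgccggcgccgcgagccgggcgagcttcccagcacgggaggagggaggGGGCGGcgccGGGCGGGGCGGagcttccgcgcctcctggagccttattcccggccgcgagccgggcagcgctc
TGFA: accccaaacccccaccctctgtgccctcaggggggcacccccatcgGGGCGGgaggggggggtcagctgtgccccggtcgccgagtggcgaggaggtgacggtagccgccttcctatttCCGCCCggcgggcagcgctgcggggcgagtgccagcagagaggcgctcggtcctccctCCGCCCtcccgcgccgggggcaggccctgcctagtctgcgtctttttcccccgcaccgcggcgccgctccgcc
The AREG window held a CRE 65 bases before the start, a TATA box at 29 bases and a GC box at 9 bases. The EREG window held a TATA box 32 bases before the start, while the HBEGF window held 5 GC boxes, a pair of which overlap, and the TGFA window held 3. None of the 4 windows matched the AP-1 letters. The window before the other RefSeq start of TGFA, not printed, matched none of the motifs. The printed TGFA window lies inside the span given for the gene below. Over all 35116 RefSeq promoters of this length, 1.65% held the CRE, 10.7% the TATA box, 42.6% the GC box and 6.57% the AP-1 site, and a match is a description of the letters and not a site of binding. RefSeq entries were found for 9 of the 10 genes.

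No receptor passed the test as higher with olaparib in either line, while ERBB2 fell in both and ERBB3 and ERBB4 fell in OVCAR3. EGFR, the receptor after which the family is named (chr7:55019017-55211628, here and for the other genes on GRCh38 from GENCODE 44), was at 64.2, 79.5, 63.7 and 69.5 CPM in the 4 OVCAR3 libraries with DMSO and at 68.1, 63.5, 65.3 and 78.9 CPM with olaparib. In UWB1.289 it was at 126, 157, 151 and 155 CPM with DMSO and at 142, 139, 155 and 163 CPM with olaparib. The treated and untreated libraries overlapped in both lines, and every UWB1.289 library lay above every OVCAR3 library. The log2 fold change was 0.00 in OVCAR3 (95% interval -0.20 to 0.20, adjusted p = 0.998) and 0.03 in UWB1.289 (-0.15 to 0.21, adjusted p = 0.884).

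ERBB2, the partner without a ligand of its own (chr17:39687914-39730426), was at 42.6, 38.4, 41.0 and 39.1 CPM in OVCAR3 with DMSO and at 31.2, 23.4, 25.6 and 25.2 CPM with olaparib. The UWB1.289 libraries held 30.1, 32.5, 28.3 and 32.9 CPM with DMSO and 23.1, 26.4, 24.0 and 26.1 CPM with olaparib. In both lines each treated library lay below each untreated one. ERBB2 fell 1.53-fold in OVCAR3 (log2 fold change -0.61, SE 0.112, adjusted p = 0.00043) and 1.24-fold in UWB1.289 (-0.31, SE 0.113, adjusted p = 0.0911). The second call was lost with DESeq2 (adjusted p = 0.119), without the filter on low counts (0.147) and in 6 of the 8 fits that each left out 1 library. Over those 8 fits the adjusted p was between 0.0809 and 0.210. PGAP3 and MIEN1 overlap ERBB2 on the opposite strand, and since the use of strand in counting is not stated their reads cannot be told apart from it. PGAP3 fell by 0.67 on the log2 scale in OVCAR3 (adjusted p = 0.0139) and MIEN1 fell by 0.31 (adjusted p = 0.0621). In UWB1.289 neither PGAP3 (log2 fold change -0.23, adjusted p = 0.586) nor MIEN1 (-0.09, adjusted p = 0.729) passed.

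ERBB3, which signals through a partner's kinase (chr12:56076799-56103505), was at 68.3, 68.1, 67.7 and 67.0 CPM in OVCAR3 with DMSO and at 52.2, 48.0, 51.3 and 45.8 CPM with olaparib, with no overlap. It fell 1.37-fold (log2 fold change -0.46, SE 0.086, adjusted p = 0.000557). The UWB1.289 values were 31.0, 26.1, 18.9 and 21.2 CPM with DMSO and 20.3, 23.8, 19.7 and 19.3 CPM with olaparib, and these groups overlapped. There the log2 fold change was -0.23 (95% interval -0.53 to 0.08, adjusted p = 0.384). A protein-coding gene, ENSG00000257411, overlaps ERBB3 on the same strand. It was not among the genes counted under that name, so its part in the ERBB3 counts cannot be seen.

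ERBB4, a receptor of the neuregulins (chr2:211375717-212538841), was at 60.7, 67.9, 57.6 and 65.4 CPM in OVCAR3 with DMSO and at 58.1, 44.7, 47.7 and 55.2 CPM with olaparib, so 1 treated library lay within the untreated range. It fell 1.22-fold (log2 fold change -0.29, 95% interval -0.50 to -0.08, adjusted p = 0.0438). The call was lost in the fit of all 16 libraries (adjusted p = 0.155) and when any 1 of 4 libraries was left out, which were replicates 2 and 4 with DMSO and 2 and 3 with olaparib (adjusted p up to 0.158). In UWB1.289 ERBB4 had 17, 4, 4 and 18 counts with DMSO and 11, 3, 3 and 7 with olaparib, too few to be tested for the drug.

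**Figure D1:**
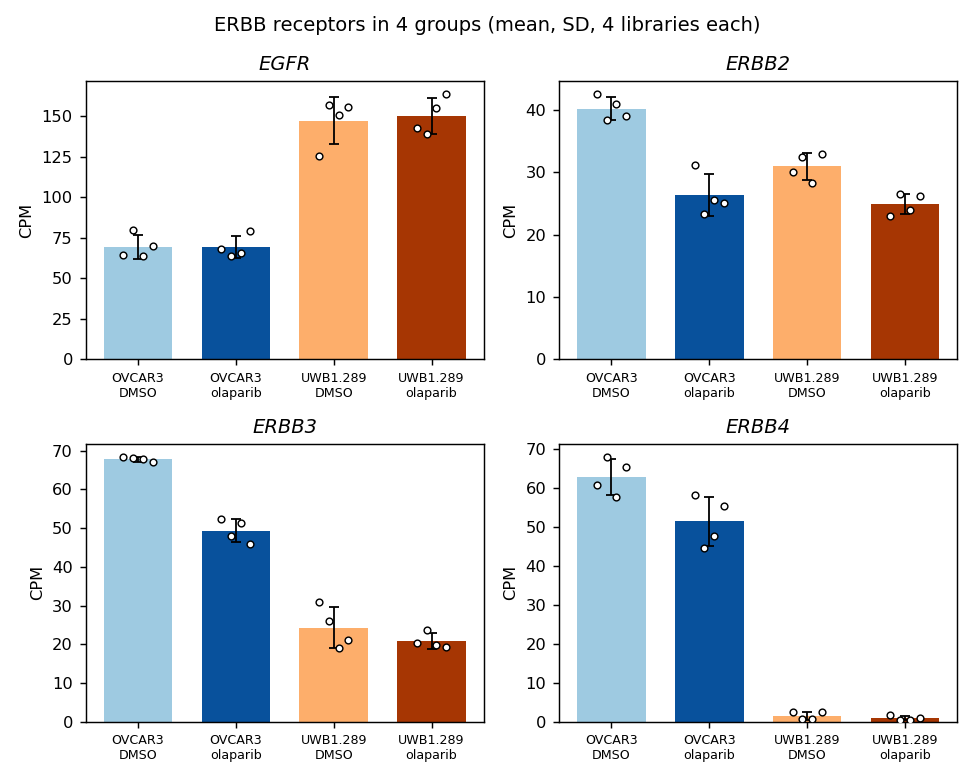
Levels of the 4 receptor genes in CPM (y axis, linear, from 0) in the 4 groups of line and treatment (x axis), with bars for the mean, error bars for the SD and points for the 4 libraries of each group. ERBB2 and ERBB3 are lower with olaparib in OVCAR3, EGFR is higher in UWB1.289 than in OVCAR3, and ERBB4 is between 0.480 and 2.56 CPM in UWB1.289.

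Among the ligands, AREG, HBEGF and TGFA rose with olaparib in both lines, but by different amounts. AREG encodes amphiregulin, a ligand of EGFR, and lies at chr4:74445136-74455005. It was at 11.2, 12.4, 12.0 and 7.30 CPM in OVCAR3 with DMSO and at 69.1, 58.2, 51.4 and 54.0 CPM with olaparib. In UWB1.289 it was at 92.3, 108, 124 and 134 CPM with DMSO and at 152, 199, 213 and 212 CPM with olaparib. None of the 4 groups overlapped, and the order of the means was UWB1.289 with olaparib, UWB1.289 with DMSO, OVCAR3 with olaparib and OVCAR3 with DMSO. AREG rose 5.46-fold in OVCAR3 (log2 fold change 2.45, SE 0.148, adjusted p = 4.10e-10) and 1.69-fold in UWB1.289 (0.76, SE 0.114, adjusted p = 8.69e-05). The treated OVCAR3 level of 58.2 ± 7.82 CPM (SD, n = 4) stayed below the untreated UWB1.289 level of 115 ± 18.4 CPM.

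TGFA, transforming growth factor alpha and another ligand of EGFR (chr2:70447284-70554193), was at 5.61, 5.41, 4.48 and 5.44 CPM in OVCAR3 with DMSO and at 16.7, 14.9, 13.3 and 18.7 CPM with olaparib. In UWB1.289 it was at 49.5, 44.6, 59.5 and 53.2 CPM with DMSO and at 69.4, 59.5, 70.1 and 67.4 CPM with olaparib. The OVCAR3 groups were apart, and the UWB1.289 groups met at 59.5 CPM. TGFA rose 3.05-fold in OVCAR3 (log2 fold change 1.61, SE 0.177, adjusted p = 1.30e-06) and by 0.37 on the log2 scale in UWB1.289 (SE 0.102, adjusted p = 0.0249). Without replicate 2 of UWB1.289 with DMSO the second call was lost (adjusted p = 0.106).

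HBEGF encodes a heparin-binding ligand of EGFR and ERBB4 (chr5:140332843-140346603). It was at 5.94, 7.51, 7.80 and 6.87 CPM in OVCAR3 with DMSO and at 11.2, 12.8, 11.5 and 12.0 CPM with olaparib. The level in UWB1.289 was 17.3, 19.8, 25.5 and 21.2 CPM with DMSO and 55.2, 42.6, 53.8 and 56.7 CPM with olaparib. As for AREG, none of the 4 groups overlapped. HBEGF rose 1.69-fold in OVCAR3 (log2 fold change 0.76, SE 0.170, adjusted p = 0.00259) and 2.49-fold in UWB1.289 (1.32, SE 0.127, adjusted p = 1.30e-07).

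**Figure D2:**
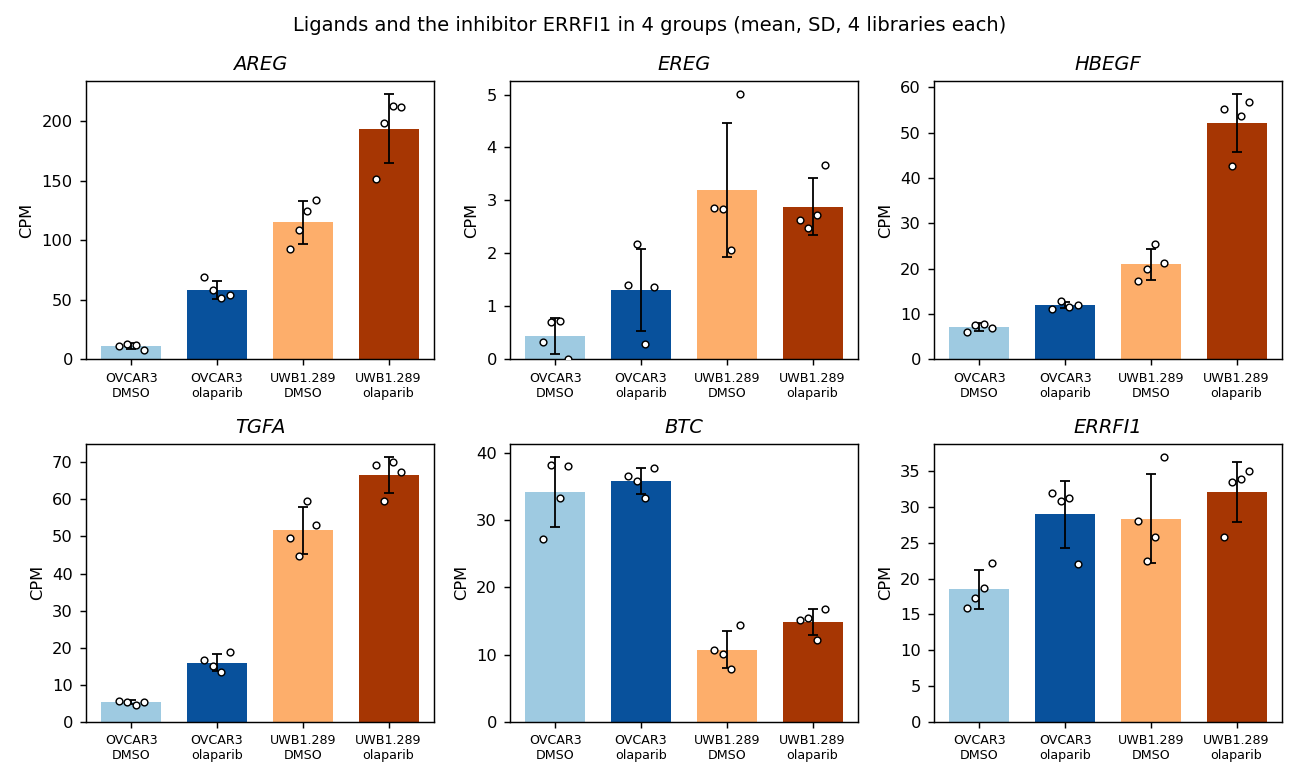
Levels of the 5 ligand genes and of ERRFI1 in CPM (y axis, linear, from 0) in the 4 groups (x axis), with bars for the mean, error bars for the SD and points for the 4 libraries. AREG goes from 10.7 to 58.2 CPM with olaparib in OVCAR3 and from 115 to 194 CPM in UWB1.289, and HBEGF goes from 20.9 to 52.1 CPM in UWB1.289.

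BTC, betacellulin, a ligand of EGFR and ERBB4 (chr4:74744759-74794523), was at 27.2, 38.2, 33.4 and 38.1 CPM in OVCAR3 with DMSO and at 36.6, 35.8, 33.2 and 37.7 CPM with olaparib. The groups overlapped, with a log2 fold change of 0.07 (95% interval -0.17 to 0.31, adjusted p = 0.716). In UWB1.289 it was at 10.7, 10.2, 7.80 and 14.4 CPM with DMSO and at 15.2, 15.4, 12.2 and 16.8 CPM with olaparib, which also overlapped. The log2 fold change there was 0.46 (SE 0.179, adjusted p = 0.115), and with the replicate number as a block it was 0.48 and passed (adjusted p = 0.0402). In the fit of all 16 libraries it passed as well (adjusted p = 0.0770).

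EREG, epiregulin, a ligand of EGFR and ERBB4 (chr4:74365145-74388749), was near the limit of detection. It had 2, 4, 5 and 0 counts in OVCAR3 with DMSO and 9, 14, 2 and 10 with olaparib, which was too few to enter that comparison. In UWB1.289 it had 19, 17, 13 and 38 counts with DMSO and 16, 14, 17 and 24 with olaparib, and the ranges overlapped. The log2 fold change in UWB1.289 was -0.16 (95% interval -0.82 to 0.50, adjusted p = 0.821). In OVCAR3 a fit without the filter gave a log2 fold change of 1.55 (95% interval 0.27 to 2.84, adjusted p = 0.110), while in the fit of all 16 libraries EREG entered the test and passed as higher with olaparib, so at this depth the call for EREG depends on the fit. EPGN, EREG, AREG and BTC lie in this order within 486054 bases of chromosome 4, with 56386 bases between EREG and AREG.

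ERRFI1, the inhibitor (chr1:8004404-8026309), was at 15.8, 17.3, 18.6 and 22.2 CPM in OVCAR3 with DMSO and at 31.9, 30.8, 31.2 and 22.0 CPM with olaparib, so replicate 4 with olaparib lay within the untreated range. It rose 1.57-fold (log2 fold change 0.65, SE 0.143, adjusted p = 0.00235). In UWB1.289 it was at 28.1, 22.5, 25.8 and 37.0 CPM with DMSO and at 25.9, 33.5, 33.9 and 35.0 CPM with olaparib, with a log2 fold change of 0.17 (95% interval -0.12 to 0.47, adjusted p = 0.502). A long noncoding RNA gene, ENSG00000284747, overlaps ERRFI1 on the opposite strand and was not among the genes counted under that name.

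In OVCAR3, 9 of the 10 genes could be tested, of which 4 rose (AREG, TGFA, HBEGF and ERRFI1), 3 fell (ERBB2, ERBB3 and ERBB4) and 2 did not pass. Among all 13031 genes tested, 15.5% passed as higher and 16% as lower. AREG and TGFA were differentially expressed, against 5.23% of all genes. In UWB1.289, 9 of the 10 could be tested, of which 3 rose (AREG, TGFA and HBEGF), 1 fell (ERBB2) and 5 did not pass. Among all 12748 genes, 7.77% passed as higher and 6.1% as lower. HBEGF was differentially expressed there, against 2.21% of all genes. The median log2 fold change over the genes tested was 0.07 in OVCAR3, where that of all genes was -0.01, and 0.17 in UWB1.289.

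**Figure D3:**
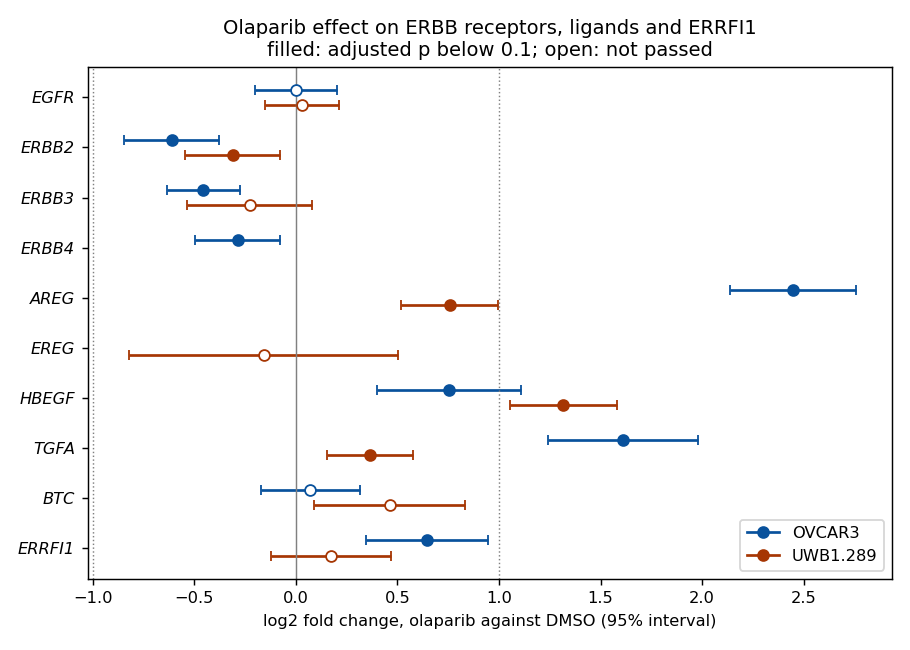
Log2 fold change of each gene with olaparib (x axis) by gene (y axis) in OVCAR3 and UWB1.289, with lines for the 95% interval and filled symbols where the adjusted p was below 0.1. AREG is at 2.45 in OVCAR3 and 0.76 in UWB1.289, HBEGF at 0.76 and 1.32, and the 4 receptors are at or below 0.03. EREG in OVCAR3 and ERBB4 in UWB1.289 are not drawn, since their counts were too low to be tested.

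Whether the effect of olaparib differed between the lines was tested as the effect in UWB1.289 minus that in OVCAR3 over all 16 libraries. Both effects enter with their own controls, and the doses differed. Of the 10 genes, 1 was higher and 2 were lower, where 5.1% and 5.83% of 14243 genes passed in these directions and 3.66% were differentially expressed. The rise of AREG was smaller in UWB1.289, with a difference of -1.69 on the log2 scale (SE 0.198, adjusted p = 7.53e-07), as was that of TGFA, with a difference of -1.24 (SE 0.189, adjusted p = 4.30e-05). The rise of HBEGF was larger in UWB1.289, with a difference of 0.56 (SE 0.204, adjusted p = 0.0950), but this call was lost with DESeq2 or its size factors (adjusted p = 0.105 in both), without the filter (0.231) and in 13 of the 16 fits that each left out 1 library, over which the adjusted p was between 0.0444 and 0.192. For the other 7 genes the difference did not pass, and for EGFR its 95% interval ran from -0.24 to 0.30. The intervals of EREG (-3.19 to -0.22, adjusted p = 0.165) and ERRFI1 (-0.90 to -0.04, adjusted p = 0.197) lay below 0 before adjustment.

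Without drug the lines differed in all 10 genes. Relative to OVCAR3, UWB1.289 had higher EGFR, AREG, EREG, HBEGF, TGFA and ERRFI1 and lower ERBB2, ERBB3, ERBB4 and BTC, and 8 of the 10 were differentially expressed. Of 13366 genes tested 39.8% were higher, 40.1% lower and 38.4% differentially expressed, so that passing was common in this comparison. AREG was 10.7-fold higher (log2 3.43, SE 0.133, adjusted p = 5.41e-20), TGFA 9.86-fold higher (3.30, SE 0.142, adjusted p = 7.24e-19) and EREG 7.24-fold higher (2.86, SE 0.499, adjusted p = 7.17e-06). HBEGF was 2.96-fold and EGFR 2.12-fold higher (adjusted p = 9.89e-10 and 2.58e-12). ERBB4 was 38.6-fold lower, BTC 3.16-fold lower and ERBB3 2.79-fold lower (adjusted p = 2.48e-20, 6.43e-11 and 9.26e-13). The EREG fold rests on OVCAR3 libraries with between 0 and 5 counts, and that of ERBB4 on UWB1.289 libraries with between 4 and 18. With 1 library left out, the log2 value of EREG was between 2.42 and 3.24. ERBB2 was 1.30-fold lower and ERRFI1 1.53-fold higher (adjusted p = 0.00136 and 0.000363). This comparison shares its DMSO libraries with those of olaparib.

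Of the other 6 ligands of the family, NRG1, NRG2 and EPGN rose with olaparib in OVCAR3, and EGF, NRG3 and NRG4 were too few in counts to be tested. NRG1, a neuregulin that binds ERBB3 and ERBB4, was between 6.15 and 7.68 CPM in OVCAR3 with DMSO and 14.2 ± 1.57 CPM (SD, n = 4) with olaparib, and between 32.5 and 37.9 CPM in UWB1.289 with DMSO and between 23.1 and 30.4 CPM with olaparib. It rose in OVCAR3 (log2 fold change 1.04, SE 0.167, adjusted p = 0.00011) and fell in UWB1.289 (-0.37, SE 0.115, adjusted p = 0.0489), and the difference of -1.40 passed (SE 0.188, adjusted p = 6.85e-06). NRG2, another neuregulin, rose in OVCAR3 (1.26, SE 0.204, adjusted p = 0.000116) from between 4.72 and 5.61 CPM to between 8.61 and 15.2 CPM, and had at most 3 counts in each UWB1.289 library with DMSO, so that it was at least 11.0-fold higher in OVCAR3. EPGN, epigen, a ligand of EGFR, rose in OVCAR3 (log2 fold change 0.997, SE 0.293, adjusted p = 0.0170) and had between 0 and 4 counts in the UWB1.289 libraries with DMSO. EGF had between 3 and 13 counts per library, NRG3 between 0 and 4 and NRG4 between 0 and 11, and none of them could be tested in either line.

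**Figure D4:**
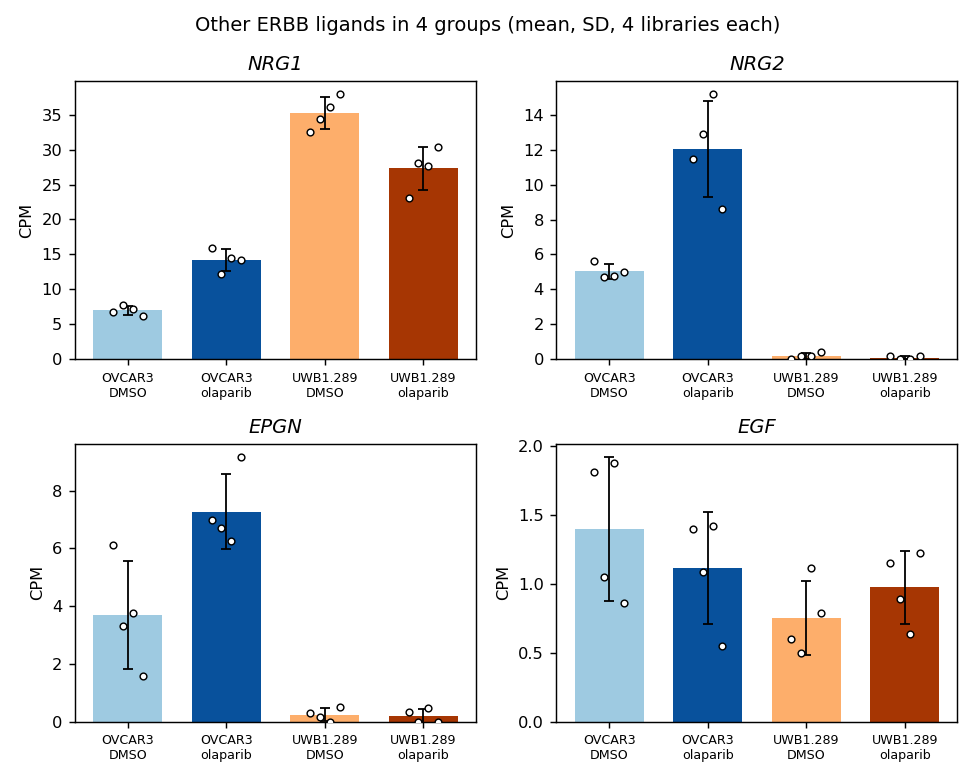
Levels of NRG1, NRG2, EPGN and EGF in CPM (y axis, linear, from 0) in the 4 groups (x axis), with bars for the mean, error bars for the SD and points for the 4 libraries. NRG1 goes from 6.96 to 14.2 CPM with olaparib in OVCAR3 and from 35.2 to 27.3 CPM in UWB1.289, while NRG2 and EPGN are near 0 in UWB1.289.

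The machinery around the receptors was counted by list, and the counts are read against the shares of all genes tested, 15.5% higher and 16% lower in OVCAR3 and 7.77% higher and 6.1% lower in UWB1.289. Of 5 genes of ligand shedding, 2 were higher and none lower in OVCAR3, and 1 was higher and 1 lower in UWB1.289. RHBDF2, which brings ADAM17 to the cell surface, rose in both lines (log2 fold change 0.56 in OVCAR3 and 0.43 in UWB1.289, adjusted p = 0.00069 and 0.0325), and its relative RHBDF1 fell by 0.94 in UWB1.289 (adjusted p = 0.00016). TIMP3, an inhibitor of ADAM17, rose by 0.33 on the log2 scale in OVCAR3 (adjusted p = 0.0230). In OVCAR3, 2 of 9 adaptor and RAS genes and 2 of 7 genes of the RAF, MEK and ERK cascade were higher and none lower, and in UWB1.289 none of 8 and of 7 passed. Of 7 genes of the PI3K arm tested, 2 were lower in OVCAR3, and 1 was higher and 1 lower in UWB1.289. Of 11 genes of receptor turnover and inhibition, 3 were higher and 1 lower in OVCAR3, and 1 was higher in UWB1.289. The lists are too short to judge whether such counts differ from the shares of all genes, so the counts are no result about these genes. None of them was differentially expressed with olaparib in either line.

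A list of 14 genes transcribed in response to ERK, which acts downstream of the receptors, was counted in the same way. In OVCAR3, 11 rose and 1 fell (EGR1), with a median log2 fold change of 1.95, where 15.5% of all genes passed as higher and 16% as lower. In UWB1.289, 4 rose and 3 fell, with a median of -0.02, against 7.77% and 6.1% of all genes. The effect of olaparib was lower in UWB1.289 than in OVCAR3 for 12 of the 14 and higher for none, against 5.83% and 5.1% of all genes. The lines started from different levels. With DMSO, 11 of the 14 were already higher in UWB1.289 than in OVCAR3 and 2 were lower, with a median log2 difference of 2.21. Of all genes, 39.8% and 40.1% passed in these directions. DUSP6, a phosphatase of ERK, rose in OVCAR3 (log2 fold change 2.46, adjusted p = 6.88e-10) and fell in UWB1.289 (-0.45, adjusted p = 0.00326). EGR1, an early response factor, fell by 1.47 on the log2 scale in OVCAR3 (adjusted p = 3.98e-09) and by 2.82 in UWB1.289 (adjusted p = 1.73e-09). SPRY4, an inhibitor of RAS signalling, and FOSL1, a subunit of AP-1, had at most 3 counts in the OVCAR3 libraries with DMSO and were at least 6.82-fold and 7.79-fold higher with olaparib.

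**Figure D5:**
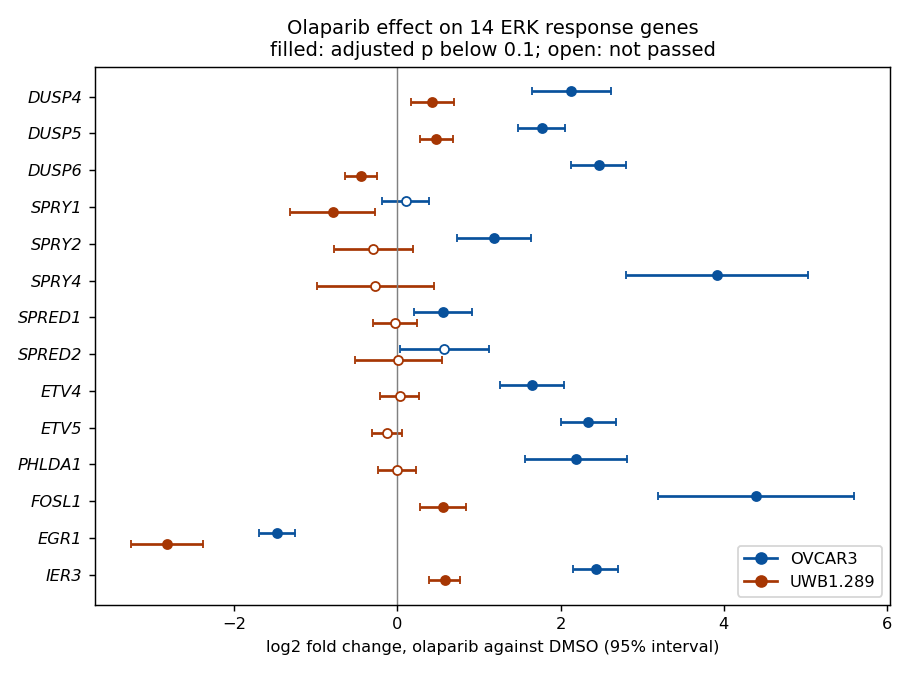
Log2 fold change with olaparib (x axis) of 14 ERK response genes (y axis) in OVCAR3 and UWB1.289, with lines for the 95% interval and filled symbols where the adjusted p was below 0.1. Most genes are higher in OVCAR3, with a median of 1.95, and lie around 0 in UWB1.289, with a median of -0.02, and EGR1 is lower in both.

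After each line's mean was subtracted, the log2 levels of AREG and TGFA had a Pearson correlation of 0.945 over the 16 libraries, AREG and HBEGF one of 0.693, and ERBB2 and ERBB3 one of 0.772. Between receptors and ligands the values were negative for ERBB2 with TGFA (-0.887), ERBB2 with AREG (-0.847) and ERBB3 with TGFA (-0.816). These libraries share the treatment, so the values describe a common pattern over treated and untreated libraries. Among 14242 genes, those most like AREG were LTB (0.974), PMEPA1 (0.973) and PTX3 (0.972). Those most like TGFA were IER3 (0.975), CLDN1 (0.971) and SOX9 (0.966), and those most like HBEGF were ZNFX1 (0.972), PNPT1 (0.964) and SLFN5 (0.961).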

How the data were processed

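QuantSeq 3' RNA libraries of 2 cell lines with olaparib or DMSO were analysed, 16 in all. The authors trimmed single-end reads (BBDuk), mapped these to hg38 (STAR 2.7.9a, per the submitters' processing notes) and assigned reads to GENCODE genes (featureCounts 2.0.0). They deposited raw counts, not normalized. The use of strand and the handling of multiply mapped reads or gene overlaps are not given in the sources used here. Groups were taken from the sample labels.

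Tests used edgeR 4.0.16 under R 4.3.3, with TMM scaling, the filterByExpr filter, quasi-likelihood F tests and p-values adjusted by Benjamini-Hochberg over all genes tested, in each line, between the lines on DMSO libraries, and for the difference of the olaparib effect over all 16 libraries. The adjusted p limit of 0.1, the 2-fold limit and the average count limit of 10 are those of the study, which used DESeq2. The members and lists were chosen with earlier results of these data known. Named genes are the 10 members, the other ligands, up to 4 differentially expressed genes of each list and the 3 genes most like a member. RHBDF2, TIMP3 in OVCAR3 and RHBDF1 in UWB1.289 fall outside that rule and were chosen after their values were seen. Correlations used log2(CPM + 0.5). Folds against a group with at most 3 counts per library were computed against 3 counts per library and cover counting error only. Fits were tested on simulated data, with changes larger than most found here for olaparib and only in genes above a count limit. That test does not cover smaller changes or genes of low counts. No 2 replicates of a group were identical. Same-numbered DMSO and olaparib libraries of UWB1.289 had correlated deviations from the group means (r between 0.0663 and 0.112 over 14243 genes, and between 0.148 and 0.245 over 8792 genes above 10 CPM, a gene set chosen after seeing the data), so the numbers were treated as possible pairs. Libraries of different numbers reached 0.0707 and 0.182 there, above the lowest same-number values. In OVCAR3 r was between 0.0275 and 0.0940 and between 0.0493 and 0.175 over these gene sets. Alternatives were DESeq2 1.42.0, its size factors, no filter, stricter limits, a replicate block, 1 fit of all libraries and leaving out each library. Coordinates are from GENCODE 44 on GRCh38.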

Additional observations from a re-analysis of the deposited data

Results flagged for a closer look

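The effect of olaparib differed between the lines for AREG (-1.69 on the log2 scale, UWB1.289 minus OVCAR3), TGFA (-1.24) and HBEGF (0.56), by the test of the difference itself, and that of HBEGF passed narrowly. ERRFI1 had 1 library far from the other 3 of its group in each line. In OVCAR3 with olaparib, replicate 4 was at 22.0 CPM and the others between 30.8 and 31.9 CPM. In UWB1.289 with olaparib, replicate 1 was at 25.9 CPM and the others between 33.5 and 35.0 CPM. These are 2 of 40 groups looked at, and the rule flags about 1 in 20 groups of like libraries. Over all genes, pairs of libraries were also compared by the mean chi-square per gene of their counts. In OVCAR3 with olaparib, pairs with replicate 4 gave between 7.69 and 11.8 and the other pairs between 3.45 and 4.38. In UWB1.289 with olaparib, pairs with replicate 1 gave between 6.46 and 7.66 and the other pairs between 3.02 and 6.93. What set these libraries apart was not tested. Without replicate 4 of OVCAR3 with olaparib, the difference of the ERRFI1 effect between the lines was -0.59 and passed (adjusted p = 0.0662).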

How the results depend on the processing

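Of the values of single genes, 170 kept their direction and their side of the threshold under the other settings, while 6 lost the call, 2 gained it and 2 turned their sign. When 1 library was left out, 345 kept both, 24 lost the call, 4 gained it and 11 turned their sign. These counts leave out the olaparib effects on EREG in OVCAR3 and ERBB4 in UWB1.289, which had no value in the main fit. With the study's limits on fold and count, 2 genes in OVCAR3 and 1 in UWB1.289 were called. Leaving out 1 library gave between 6 and 7 passing genes in OVCAR3, between 2 and 4 in UWB1.289, 10 between the lines and between 2 and 3 for the difference. The 2 in UWB1.289 came without replicate 2 with DMSO, which lost TGFA and ERBB2.

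With the replicate number as a block, 7, 5, 10 and 3 genes passed in the 4 comparisons, and BTC in UWB1.289 (0.48) was the only call that changed.

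The values that turned their sign were near 0 and had not passed. EGFR in OVCAR3 was -0.0032 in the fit of all libraries and between -0.0707 and 0.0699 with 1 library left out, and its difference was -0.0075 without the filter and between -0.0408 and 0.101 with 1 library left out. Leaving out 1 library gave between -0.0366 and 0.0621 for EGFR in UWB1.289, between -0.0242 and 0.125 for BTC in OVCAR3 and between -0.316 and 0.157 for EREG in UWB1.289. EREG passed for the difference without replicate 3 of OVCAR3 with olaparib (-2.05, adjusted p = 0.0669). Why these values moved was not tested. Depth limits EREG in both lines, with fewer counts in OVCAR3, and EPGN and ERBB4 in UWB1.289, with few counts in each library.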
